A study of Homo sapiens with 6 samples.

Results

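To examine the tubulin genes after METTL16 silencing, the 10 rows of the deposited gene table that are named TUBA1A, TUBA1B, TUBA1C, TUBA4A, TUBB, TUBB2A, TUBB2B, TUBB3, TUBB4B and TUBB6 were taken by gene name out of 58735 genes. These are 4 alpha and 6 beta tubulin isotypes, and all 10 were among the 15089 genes with enough counts to be tested. Sequencing used PANC-1 cells, a line derived from a human pancreatic ductal carcinoma. A control siRNA (si-NC) was given to 3 samples, and siRNA directed at METTL16 (si-METTL16), an RNA m6A methyltransferase, to the other 3. The methods call the samples of each group biological triplicates and the transfection stable, while 1 label of the control samples reads WT. For METTL16 silencing in PANC-1 in general, the methods describe short hairpin RNA with puromycin selection of stable cells and refer to a list of sequences. They do not say which sequence, or what time after transfection, applied to the sequenced samples.

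Microtubules are hollow polymers built from dimers of an alpha and a beta tubulin, and dividing cells rebuild them into the mitotic spindle. Each chain is encoded by several genes, the isotypes, whose proteins differ mostly in their acidic tails, and some isotypes, such as TUBB3 and TUBB2B, are known as neuronal, while TUBB, TUBA1B and TUBB4B are widely expressed. Cells also sense free tubulin. The protein TTC5 recognises the first residues of a tubulin chain as it leaves the ribosome, and through SCAPER and the CCR4-NOT subunit CNOT11 it has the mRNA degraded, a feedback known as tubulin autoregulation.

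The start of the coding sequence encodes the residues that TTC5 recognises. The first 30 coding bases of each isotype are therefore printed, with the first 12 bases, from the start codon on, in capitals. They come from the MANE Select transcripts (the agreed reference transcript of each gene) of GENCODE release 44 on GRCh38. The identical start of TUBA1A, TUBA1B and TUBA1C is printed once. In the first 12 bases, 2 distinct forms occurred in the alpha genes and 4 in the beta genes. Within each family these forms encode the same residues, Met-Arg-Glu-Cys in alpha and Met-Arg-Glu-Ile in beta.
TUBA1A, TUBA1B and TUBA1C: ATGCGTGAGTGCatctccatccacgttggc
TUBA4A: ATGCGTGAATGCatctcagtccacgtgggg
TUBB: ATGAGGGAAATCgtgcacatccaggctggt
TUBB2A: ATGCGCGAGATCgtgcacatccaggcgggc
TUBB2B: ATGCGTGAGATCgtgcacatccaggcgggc
TUBB3: ATGAGGGAGATCgtgcacatccaggccggc
TUBB4B: ATGAGGGAAATCgtgcacttgcaggccggg
TUBB6: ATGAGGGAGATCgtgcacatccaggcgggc

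In the alpha genes an intron follows the start codon, which stands alone in its coding exon at chr12:49188977-49188979 in TUBA1A, chr12:49131298-49131300 in TUBA1B, chr12:49265182-49265184 in TUBA1C and chr2:219253856-219253858 in TUBA4A. In the beta genes the 30 bases lie in 1 exon, at chr6:30720507-30720536 for TUBB, chr6:3157434-3157463 for TUBB2A, chr6:3227514-3227543 for TUBB2B, chr16:89923402-89923431 for TUBB3, chr9:137241361-137241390 for TUBB4B and chr18:12308293-12308322 for TUBB6. TUBA1A, TUBA1B, TUBA4A, TUBB2A and TUBB2B are on the minus strand and the other genes on the plus strand. Over whole coding sequences, the 6 pairs of alpha genes were 85% to 97.3% identical, the 15 pairs of beta genes 81.4% to 98.1%, and the 24 pairs of an alpha with a beta gene 58.5% to 62.2%. TUBB2A and TUBB2B formed the closest pair, and TUBA1B and TUBA1C, at 97.3%, the closest alpha pair.

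The counts summed to between 15725298 and 18054436 per sample. The targeted gene METTL16 fell by 1.48 on the log2 scale (SE 0.07, adjusted p = 8.3e-05 by edgeR's quasi-likelihood test), with 91.5, 96.7 and 101 CPM in the control samples and 34.8, 33.9 and 34.9 CPM in the silenced samples. CPM are counts brought to a common total after TMM scaling, and every adjusted p is edgeR's, Benjamini-Hochberg adjusted over the 15089 genes. A gene was called at an adjusted p under 0.05. The ductal epithelial markers KRT8, KRT18, KRT19, KRT7 and EPCAM were all detected in every sample. Their summed level was 2838 to 3904 CPM in the control group and 3099 to 3389 CPM in the silenced group. However, KRT19 (log2 fold change -1.40) and KRT7 (-0.84) were called lower, where 17.5% of all tested genes were.

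The tubulin isotypes were higher in METTL16-silenced cells compared with the control group. Of the 10 genes, 8 were called higher, 0 lower and 2 were not called. Of all tested genes, 35.9% were called in either direction, 18.4% higher and 17.5% lower. The log2 fold change was positive for all 10 isotypes, from 0.43 for TUBA1A to 1.11 for TUBA1C, with a median of 0.60. Over all tested genes the median was -0.0045 and the middle of the distribution, between its quartiles, ran from -0.33 to 0.32. For 9 isotypes every silenced sample was above every control sample, an ordering found upwards for 25.7% of all tested genes and in either direction for 50.9%. In bulk RNA, a larger share of cells in a phase that uses more tubulin and more tubulin mRNA per cell cannot be told apart.

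**Figure D1:**
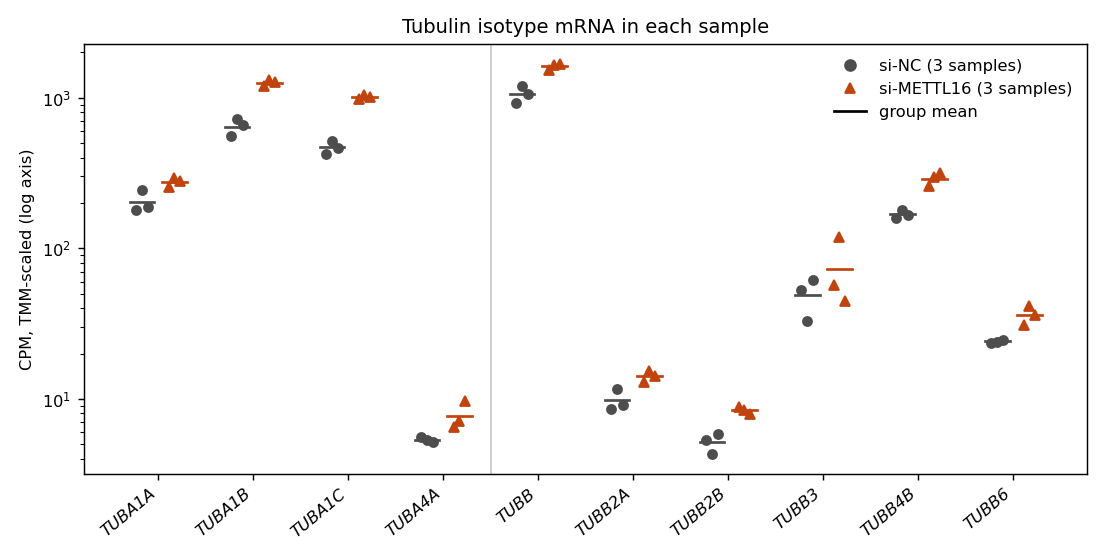
CPM of each tubulin isotype in the 6 samples on a log axis, with alpha isotypes to the left and beta isotypes to the right; each point is a sample and each bar a group mean. The silenced samples lie above the control samples for every isotype except TUBB3, where they spread from 44.4 to 118 CPM.

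Among the alpha isotypes, TUBA1C and TUBA1B moved furthest. TUBA1C, one of the widely expressed alpha genes, had 423, 516 and 464 CPM in si-NC replicates 1, 2 and 3 and 974, 1049 and 1006 CPM in the si-METTL16 replicates. Its log2 fold change was 1.11 (SE 0.08, 95% interval 0.92 to 1.30, adjusted p = 1.6e-04), a 2.16-fold difference. TUBA1B, the main alpha isotype by level, had 554, 716 and 658 CPM in the control samples against 1195, 1310 and 1264 CPM in the silenced samples. The log2 fold change of TUBA1B was 0.97 (SE 0.10, interval 0.74 to 1.19, adjusted p = 4.6e-04). In both genes the groups lay far apart, and the lowest silenced sample was well above the highest control sample.

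TUBA1A, an alpha isotype known for its role in neurons that was also abundant here, moved less. It had 178, 245 and 189 CPM in the control samples and 254, 294 and 279 CPM in the silenced samples, so that control replicate 2 came close to silenced replicate 1. Its log2 fold change was 0.43 (SE 0.12, interval 0.14 to 0.73, adjusted p = 0.031). The call of TUBA1A was lost when si-NC replicate 1 or 3 or si-METTL16 replicate 2 or 3 was left out (adjusted p 0.079 to 0.10) and without the filter on low genes (0.052). TUBA4A, a low isotype in these cells, had 5.62, 5.30 and 5.19 CPM in the control samples and 6.46, 7.12 and 9.62 CPM in the silenced samples. The groups did not overlap, but TUBA4A was not called (log2 fold change 0.53, SE 0.18, adjusted p = 0.060), and si-METTL16 replicate 3 stood above the other silenced samples. Without si-METTL16 replicate 1, TUBA4A passed the threshold at an adjusted p of 0.048.

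Among the beta isotypes, TUBB, the main beta gene of these cells, had 922, 1201 and 1053 CPM in the control samples against 1534, 1656 and 1685 CPM in the silenced samples. Its log2 fold change was 0.62 (SE 0.10, interval 0.39 to 0.85, adjusted p = 0.0029). TUBB4B, the next most abundant beta isotype, had 159, 180 and 166 CPM in the control samples and 259, 297 and 314 CPM in the silenced samples. TUBB4B had the largest log2 fold change among the beta isotypes, 0.78 (SE 0.09, interval 0.58 to 0.99, adjusted p = 7.0e-04). Both genes separated the groups in every sample.

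The lower beta isotypes moved in the same direction with wider errors. TUBB6 was steady in the control group, at 23.7, 23.8 and 24.8 CPM, and reached 30.8, 41.2 and 36.1 CPM in the silenced group (log2 fold change 0.58, SE 0.12, adjusted p = 0.0080). TUBB2B had 5.33, 4.3 and 5.88 CPM in the control samples and 8.78, 8.46 and 7.96 CPM in the silenced samples (log2 fold change 0.70, SE 0.16, adjusted p = 0.013). TUBB2A, its close copy, had 8.52, 11.7 and 9.07 CPM in the control samples and 12.9, 15.2 and 14.1 CPM in the silenced samples (log2 fold change 0.53, SE 0.15, adjusted p = 0.031). No silenced sample of these 3 genes reached down to a control sample. The call of TUBB2A was lost under the same omissions as that of TUBA1A (adjusted p 0.073 to 0.096) and without the filter on low genes (0.056).

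TUBB3, the class III beta tubulin used as a neuronal marker and also seen in many tumours, was the exception. It had 52.5, 32.8 and 61.6 CPM in the control samples and 57.2, 118 and 44.4 CPM in the silenced samples, and the groups overlapped. Its log2 fold change of 0.58 (SE 0.38, interval -0.32 to 1.48, adjusted p = 0.28) rested on si-METTL16 replicate 2, and without that sample it was 0.05 (adjusted p = 0.91). The interval of TUBB3 held both no change and values above those of the other isotypes. Of 8 genes that mark neurons, 2 had enough counts to be tested, SNAP25 (log2 fold change 1.09) and SYP (0.65). Both were called higher, where 18.4% of all tested genes were. The summed level of the 8 was 15.97 to 17.1 CPM in the control group and 25.01 to 27.9 CPM in the silenced group. RBFOX3, ELAVL3, ELAVL4, NEFL, STMN2 and DCX had at most 2 counts in any sample.

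**Figure D2:**
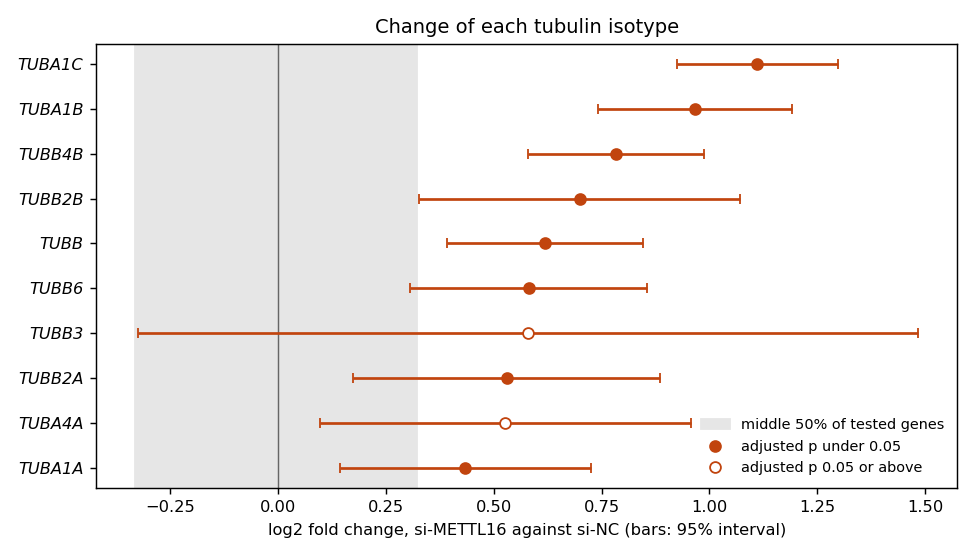
Log2 fold change of each tubulin isotype, si-METTL16 against si-NC, from edgeR's quasi-likelihood fit, with 95% intervals; filled points were called at an adjusted p under 0.05 and the grey band spans the middle 50% of all tested genes. TUBA1C and TUBA1B are highest at 1.11 and 0.97, and the interval of TUBB3 runs from -0.32 to 1.48.

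Markers of other cell types moved as well, where 18.4% of all tested genes were called higher and 17.5% lower. Of 5 fibroblast markers, COL1A1 (log2 fold change 1.27) and COL3A1 (0.69) were called higher, and the list summed to 331 to 383 CPM in the control group and 816 to 856 CPM in the silenced group, while DCN, LUM and PDGFRB had at most 8 counts in any sample. Of 3 leukocyte markers, CD14 was called lower (-0.9997) and CD3E was at 0 in all samples. PTPRC, too low to be tested, had 5, 5 and 5 counts in the control samples and 0, 0 and 3 in the silenced samples. The leukocyte list summed to 3.31 to 4.01 CPM against 0.96 to 2.19 CPM. The 2 endothelial markers, PECAM1 and CDH5, stayed under 1 CPM in sum. All samples were of the PANC-1 line, and whether these marker differences bear on the tubulin differences was not tested.

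The replicates also shared an order. In the control group, 6 of the 10 isotypes were lowest in replicate 1 and highest in replicate 2, with replicate 3 between them, and replicate 1 was lowest for 7 isotypes. In the silenced group, replicate 1 was lowest for 8 isotypes and replicate 2 was highest for 6. The isotypes are therefore no separate replicates of the comparison. Together the 10 genes held 0.234%, 0.295% and 0.266% of all counts in the control samples and 0.427%, 0.476% and 0.464% in the silenced samples.

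To compare levels between genes, counts must be divided by length. The deposited FPKM, counts scaled by gene length and by the total of the sample, implied a length for each gene that was 1.28 times (TUBB2A) to 6.26 times (TUBB3) that of the MANE Select transcript. For 3 isotypes, and for 9.87% of the 11505 genes with over 50 counts in every sample, the implied length was above the whole span of the gene in the table. The span of TUBA1B is 3616 bases and its implied length 8144 bases. Levels are therefore given both in FPKM and as CPM per kilobase of MANE Select transcript.

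By FPKM in the control group, TUBB was highest at 259 ± 34.2 (SD, n = 3), followed by TUBA1B at 79.4 ± 10.2, and then by TUBB4B (47.5 ± 2.93) and TUBA1C (47.2 ± 4.74), whose samples overlapped. TUBA1A was next at 25.1 ± 4.35 FPKM. TUBB2A (4.74 ± 0.81) and TUBB3 (4.61 ± 1.39) overlapped, and TUBB6 (2.23 ± 0.06), TUBB2B (1.40 ± 0.22) and TUBA4A (0.81 ± 0.03) followed, each apart from its neighbour. In the silenced group TUBA1C, at 100.4 ± 4.01 FPKM, stood apart above TUBB4B, at 80.7 ± 8.31, while the rest kept this order except that TUBB3 (6.79 ± 3.66) and TUBB2A (6.74 ± 0.57) changed places within their overlap.

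Per kilobase of MANE Select transcript, TUBA1C and TUBA1A stood above TUBB4B in the control group, and TUBA1B above TUBB in the silenced group. In the control group TUBB (423 ± 55.9) and TUBA1B (397.5 ± 50.8) overlapped, TUBA1C followed at 167 ± 16.7, and TUBA1A (123 ± 21.3) overlapped TUBB4B (108 ± 6.67). TUBB3 was then at 28.9 ± 8.71, above TUBB6 (12.9 ± 0.33) and TUBB2A (6.07 ± 1.05), and TUBB2B (2.71 ± 0.42) overlapped TUBA4A (2.64 ± 0.11). In the silenced group TUBA1B, at 765 ± 37.9, stood above TUBB, at 640.5 ± 34.6, with no overlap between their samples. Which of these genes led the family thus depended on the length used, and the order of TUBB and TUBA1B differed between the groups on this scale and not in FPKM.

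The summed alpha isotypes differed more between the groups than the summed beta isotypes on both scales. In FPKM, the alpha sum was 134, 171 and 152 in the control samples and 272.5, 300.5 and 290.4 in the silenced samples, a ratio of group means of 1.89. The beta sum was 283, 357 and 319 FPKM in the control samples and 456, 507 and 513 FPKM in the silenced samples, a ratio of 1.54. No control sample reached a silenced sample in either sum. The alpha to beta ratio was 0.472, 0.480 and 0.477 in the control samples and 0.597, 0.593 and 0.567 in the silenced samples. Per MANE Select length, the same ratio was 1.18 ± 0.03 and 1.43 ± 0.04 (SD, n = 3), so its value depended on the length, while the higher ratio after silencing did not. These sums over chosen genes were not tested.

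Within the alpha sum, the share of TUBA1A was lower and that of TUBA1C higher in every silenced sample than in any control sample. TUBA1A made up 16.4%, 17.5% and 15.3% of the alpha FPKM in the control samples and 11.2%, 11.8% and 11.7% in the silenced samples, a difference of -4.81 percentage points (exact two-sided permutation test, p = 0.1). TUBA1C held 31.9%, 30.4% and 30.8% against 35.4%, 34.7% and 34.6%, a difference of 3.90 percentage points (exact permutation p = 0.1). With 3 against 3 samples 0.1 is the smallest p this test can give, so neither share could reach 0.05. Both shares separated the groups on all 3 scales used, which were FPKM, counts and counts per MANE Select length. TUBA1B held 52.1% ± 1.21 and 53.1% ± 0.07 of the alpha FPKM, and its groups overlapped (exact permutation p = 0.4), although they did not per MANE Select length, at 57.6% and 59.5% (exact permutation p = 0.1).

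Within the beta sum, TUBB held 81.0% ± 1.37 of the FPKM in the control group and 79.8% ± 0.91 in the silenced group (exact permutation p = 0.3). TUBB4B held 14.9% ± 0.84 and 16.4% ± 0.72 (exact permutation p = 0.2), with 1 silenced sample at 15.67% below the control maximum of 15.84%. By counts and per MANE Select length the samples of TUBB4B did not overlap (exact permutation p = 0.1 in both). The shares of TUBB2A, TUBB2B, TUBB3 and TUBB6 overlapped between the groups on every scale. Per MANE Select length, TUBB3 ranged from 3.03% to 6.19% of the beta sum in the control samples and from 2.80% to 7.26% in the silenced samples. The 10 shares were tested in FPKM, by counts and per MANE Select length. Since no p of this test can be under 0.1 here, no adjusted p could be under 0.1 either, whatever the shares.

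**Figure D3:**
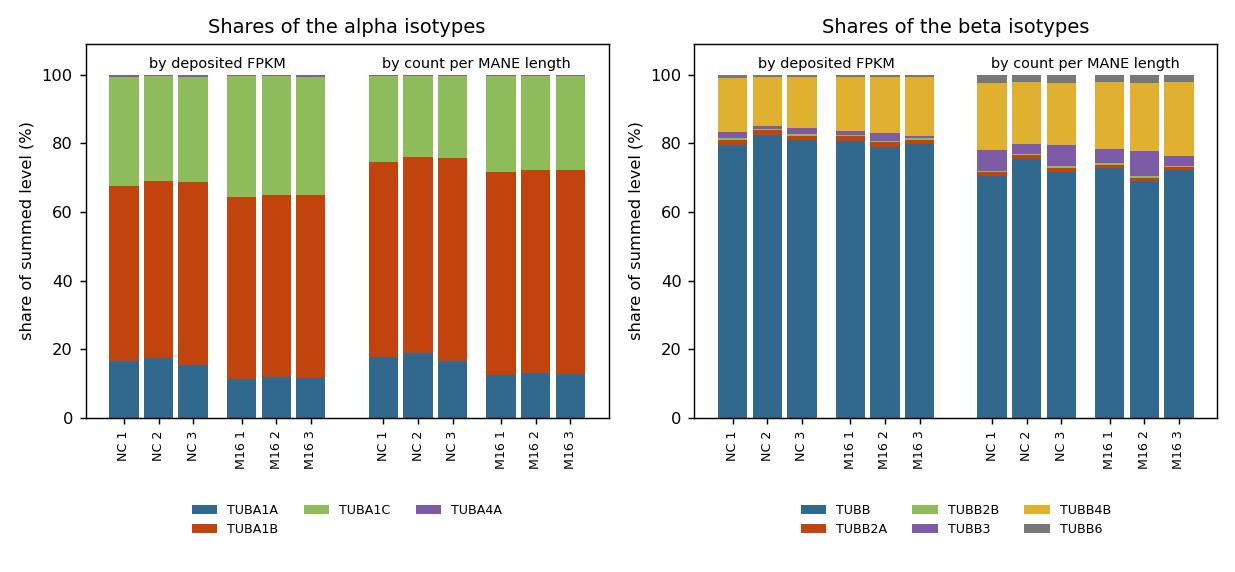
Share of each isotype in the summed alpha (left) and beta (right) level of every sample, by deposited FPKM and by count per MANE Select length; NC is si-NC, M16 is si-METTL16, the digit is the replicate and each bar adds to 100%. The TUBA1A segment is smaller in all silenced samples (11.2% to 11.8% against 15.3% to 17.5% of alpha FPKM), while the beta bars differ little between the groups.

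The factors of tubulin autoregulation did not move with the isotypes. TTC5, which recognises nascent tubulin, had 19.1, 20.2 and 18.03 CPM in the control samples and 10.7, 10.2 and 9.79 CPM in the silenced samples. Its log2 fold change was -0.90 (SE 0.10, interval -1.14 to -0.66, adjusted p = 7.5e-04), and TTC5 was called in 14 of 14 alternative analyses. TTC5 was thus lower in every silenced sample, at 0.54 times its control level. CNOT11, the CCR4-NOT subunit in this pathway, had 93.4, 89.9 and 95.7 CPM in the control samples and 76.1, 77.5 and 74.3 CPM in the silenced samples (log2 fold change -0.29, SE 0.06, adjusted p = 0.0089). SCAPER, the adaptor between them, was not called (log2 fold change -0.12, SE 0.15, adjusted p = 0.57), with 9.29 to 12.1 CPM in the control samples and 8.65 to 10.6 CPM in the silenced samples. Whether the level of TTC5 bears on the tubulin mRNAs was not tested. TTC5 shares 740 exonic bases with a lncRNA on the same strand that had 75 counts over all samples, against 159 to 343 counts of TTC5 in each.

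Of the 12 other tubulin genes, 5 had enough counts to be tested, and 2 were called higher and 1 lower, where 35.9% of all tested genes were called in either direction. TUBD1, the delta tubulin of centrioles, had 10.0, 10.3 and 11.5 CPM in the control samples and 26.6, 27.1 and 26.0 CPM in the silenced samples (log2 fold change 1.33, SE 0.10, adjusted p = 1.7e-04). TUBG1, the gamma tubulin that nucleates microtubules, was called higher at 0.50 (SE 0.10, adjusted p = 0.0074). TUBB4A, a beta isotype known from brain, was called lower, with 9.59, 10.8 and 8.27 CPM in the control samples and 2.99, 3.21 and 4.12 CPM in the silenced samples (log2 fold change -1.47, SE 0.18, adjusted p = 0.0011). TUBB4A was therefore the tested beta gene with the opposite sign. TUBE1 (-0.27) and TUBG2 (-0.20) were not called. TUBG1 and TUBG2 are also counted among the genes of the gamma-tubulin complex. TUBA3C, TUBA3D, TUBA3E, TUBA8, TUBAL3, TUBB1 and TUBB8 had at most 13 counts in any sample, and TUBA3C and TUBA3E had 0 in all.

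The factors that fold tubulin changed in both directions. Of 21 chaperonin, prefoldin and tubulin cofactor genes, 7 were called higher, 4 lower and 10 were not called, with a median log2 fold change of 0.13. The called share was 52.4%, against 35.9% of all tested genes (18.4% higher and 17.5% lower). The chaperonin subunit CCT3 (0.28, SE 0.05, adjusted p = 0.0032) and the prefoldin subunit PFDN2 (0.48, SE 0.08, adjusted p = 0.0028) rose. TBCE, a cofactor of the alpha chain (-0.93, SE 0.08, adjusted p = 3.0e-04), and ARL2, a small GTPase that works with the cofactors (-0.77, SE 0.13, adjusted p = 0.0038), fell. The table holds 2 rows under the name TBCE, and the value is that of 1 of them, so it is uncertain. Without si-NC replicate 1, 7 rather than 11 of the folding genes were called.

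Of 28 genes for enzymes that modify tubulin tails or lysines, 21 were tested, and 2 were called higher, 4 lower and 15 not, with a median of -0.07. TTL, the ligase that restores the terminal tyrosine of alpha tubulin, was higher at 0.33 (SE 0.07, adjusted p = 0.011). VASH1, a carboxypeptidase that removes this tyrosine, was lower at -0.74 (SE 0.12, adjusted p = 0.0037). VASH2, also on this list, lay on the other side at 1.48 (SE 0.55) and was not called (adjusted p = 0.076). It had 6, 33 and 11 counts in the control samples and 34, 51 and 51 in the silenced samples. TPGS1 (-1.17, SE 0.18, adjusted p = 0.0027) and TPGS2 (0.38, SE 0.08, adjusted p = 0.0081), both subunits of the tubulin polyglutamylase complex, went in opposite directions. The called share of this list, 28.6%, was below the 35.9% of all tested genes.

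Genes for proteins that bind or nucleate microtubules were called in both directions. Of 44 microtubule-associated proteins, 40 were tested, and 14 were called higher, 4 lower and 22 not, with a median of 0.06. The genes with the smallest p were CKAP5, a microtubule polymerase (0.92, SE 0.06, adjusted p = 1.4e-04), TPX2, a spindle assembly factor (1.21, SE 0.09, adjusted p = 1.6e-04), TACC3, a spindle protein (1.29, SE 0.12, adjusted p = 3.7e-04), and NUSAP1, a nucleolar and spindle protein (1.34, SE 0.13, adjusted p = 4.0e-04). Of 14 genes of the gamma-tubulin complex and its anchors, 6 were called higher, 1 lower and 7 not, with a median of 0.13. TUBGCP3, a ring complex subunit (1.11, SE 0.08), NEDD1, which targets the complex to the spindle (0.73, SE 0.08), and PCNT, a centrosome scaffold (0.61, SE 0.08), rose, and AKAP9, a centrosome and Golgi scaffold (-0.48, SE 0.08), fell (adjusted p 1.8e-04, 7.0e-04, 0.0011 and 0.0033). These lists hold genes of interphase and of mitosis together, and their called shares were 45% and 50%, against 35.9% of all tested genes (18.4% higher and 17.5% lower). Since all lists were chosen with results of these data known, the counts describe them and do not set them apart from other genes.

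**Figure D4:**
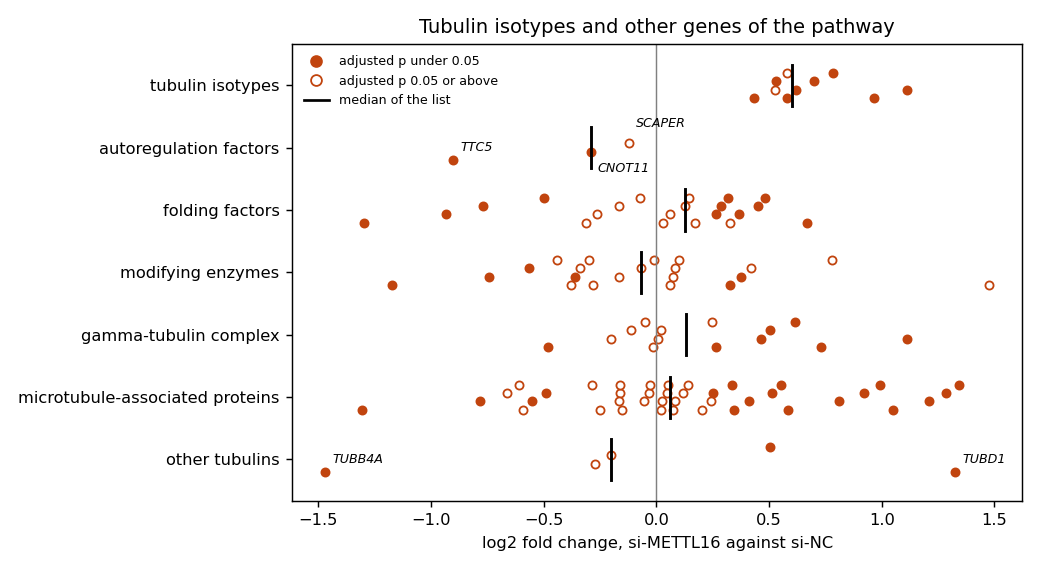
Log2 fold change, si-METTL16 against si-NC, of every tested gene of the tubulin isotypes and of 6 lists of related genes; filled points were called at an adjusted p under 0.05 and vertical bars are list medians. The isotypes have their median at 0.60 and all 10 lie above 0, the medians of the folding, modifying, gamma-tubulin and microtubule-associated lists lie between -0.07 and 0.13, and TTC5 stands at -0.90.

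Over the 6 samples, the genes whose log2 CPM followed that of TUBA1C most closely among 9906 genes with a mean of at least 10 CPM were SHCBP1, B3GALT6, IER3IP1, RRM1 and KIF11, with Pearson's r from 0.9993 to 0.9998. KIF11 encodes a mitotic kinesin and RRM1 the large subunit of ribonucleotide reductase. The 5 genes had log2 fold changes of 1.43 for SHCBP1, 0.43 for B3GALT6, 0.67 for IER3IP1, 1.26 for RRM1 and 1.35 for KIF11. All 5 were called higher, where 18.4% of all tested genes were. Their selection led to this, since genes that follow TUBA1C so closely separate the groups as it does. Among the isotypes, TUBA1B ranked 53rd by this measure (r = 0.996), TUBB4B 414th (0.984), TUBB 575th (0.978) and TUBB3 4035th (0.418). The samples fall into the 2 groups and share their libraries between genes, so r is given as a description.

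Promoter windows of RefSeq on GRCh38.p14, each 300 bases long and mostly upstream of a transcription start, were searched on both strands for CCAAT, the box bound by NF-Y, and TTTGAA, a form of the cell cycle genes homology region (CHR). At least 1 window of 7 of the 10 isotype genes held CCAAT, which 39.7% of all 27305 genes did, and 2 held TTTGAA, which 18.2% of all genes did. Both motifs within 30 bases occurred in TUBA1C and TUBB4B, and in 1.61% of all genes. These stretches are printed because promoters of genes that rise towards mitosis are known to carry this pair, with every match to either motif in capitals. The TUBA1C stretch holds 2 copies of TTTGAA and 1 of CCAAT, and the TUBB4B stretch 1 of each.
TUBA1C chr12:49264901-49264930, plus strand: tggTTTGAActTTTGAAtccgCCAATcagc
TUBB4B chr9:137241038-137241067, plus strand: tcaatcaTTTGAAacacCCAATggacggag
The first printed base lies at -181 from the start site in TUBA1C and at -249 in TUBB4B. The search set neither the order of the motifs nor their distance from the start site. In both stretches TTTGAA lies further upstream than CCAAT, and this arrangement was not compared with that of known promoters. In TUBA1C 1 of 3 windows held the pair. The windows of TUBA1B, TUBA4A and TUBB2A held neither motif. A match in the letters does not show that a factor binds there, and whether the motifs bear on the mRNA levels was not tested.

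Some rows cannot be fully separated from their copies. All 100-base stretches of each MANE Select transcript were sought in annotated transcripts of other genes, leaving out genes that overlap its exons. The share found was highest for TUBB2A (55.6%) and TUBB2B (48.7%), then TUBA1B (37.2%), TUBA1A (18.1%) and TUBA1C (10.5%). It was 5.42% for TUBB, 5.35% for TUBB3, 3.01% for TUBB4B and 0% for TUBA4A and TUBB6. With overlapping genes included, it was 92.5% for TUBB3, 71.1% for TUBA1B, 31.6% for TUBA1C and 29.1% for TUBA4A. For TUBB it was then 21.7%, for TUBA1A 21.5% and for TUBB4B 4.71%. A lncRNA on the opposite strand, with 16 counts over all samples, shared 65.4% of the TUBA1B stretches. Another, with 2 counts over all samples, shared 19.8% of those of TUBA1C. TUBA1A and TUBA1C overlap each other, so their lower shares of 18.1% and 10.5% leave out stretches found only between them. The genome outside annotated transcripts was not searched. Reads of TUBB2A and TUBB2B, and of the 3 TUBA1 genes, may thus have been counted to one another, and the read length is not given in the sources used here. Overlaps on opposite strands were found between TUBA1A and TUBA1C (345 exonic bases), TUBA4A and STK16 (628) and TUBB6 and AFG3L2 (837), and whether the counting used strand is not given in the sources used here. The calls of TUBB6, TUBB4B, TUBB2B, TUBB, TUBA1C and TUBA1B held in every alternative analysis. None of these analyses counted the reads anew, so they cannot show whether reads were counted to the wrong gene.

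Rows for 2 further genes were uneven between libraries. The processed pseudogene TUBBP1, a copy of TUBB, had 356, 544 and 409 counts in the control samples and 18, 14 and 716 counts in the silenced samples, between 0.0542% and 2.60% of the counts of TUBB and TUBBP1 together. With the 2 rows summed, the log2 fold change of TUBB was 0.60 (adjusted p = 0.0037). A protein-coding gene that shares 1584 exonic bases with TUBB3 on the same strand had 578 counts in si-NC replicate 3, 416 in si-METTL16 replicate 3 and 0 in the other 4 samples. With this row added, TUBB3 had 887, 556 and 1658 counts in the control samples and 939, 1842 and 1214 in the silenced samples, and its log2 fold change was 0.43 (adjusted p = 0.45). Over all 39 tubulin pseudogenes in the table, 14 had a count, and together they held 0.799% of the counts of pseudogenes and isotypes. TUBAP2, a pseudogene of the TUBA1 genes, had 78, 99 and 74 counts in the control samples and 139, 124 and 164 in the silenced samples (log2 fold change 0.80, SE 0.17, adjusted p = 0.0090).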

How the data were processed

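The authors deposited raw counts and FPKM of 58735 genes in 6 PANC-1 samples. The submitters' processing notes name HISAT2 2.0.4, StringTie 1.3.0 and GRCh38 (hg38). The counting program, annotation release and use of strand are not given in the sources used here. In the deposited FPKM, counts are divided by the sample total and by a length that for 1136 of 11505 genes exceeded the gene's span. Groups and replicate numbers came from the sample titles.

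Counts were scaled by TMM and filtered with filterByExpr (minimum count 10, minimum total 15), and 15089 genes were compared with edgeR 4.0.16 (glmQLFit, glmQLFTest) in R 4.3.3. Benjamini-Hochberg adjusted p had a threshold of 0.05, and SEs were derived from each F statistic. The methods name limma, which was run as an alternative because counts were deposited. Total counts were 15725298 to 18054436 per sample, where 3 counts equal 0.166 to 0.191 CPM. The common biological coefficient of variation was 16.5%. Exact permutation tests used scipy 1.17.1, log2 CPM for likeness a prior count of 2, and transcripts GENCODE release 44. Scripts were tested on simulated data.

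Alternatives were each sample left out, a replicate block, no filter, at least 10 counts in every sample, DESeq2 1.42.0 (size factors, Wald test), limma 3.58.1 on voom values, and limma on log2(FPKM + 1) and log2(FPKM + 0.1) over genes with mean FPKM of at least 1. Summing TUBB with TUBBP1 and TUBB3 with its overlapping gene, and MANE Select lengths, were added after seeing the data. The isotypes and all lists were chosen with earlier results of these data known. Named were all isotypes, METTL16, autoregulation factors, the 4 called genes of smallest p in each other list, and the 5 genes most like the called isotype with the largest change. Markers and the other tubulins are named as whole lists. TUBBP1, TUBAP2, VASH2 and the gene overlapping TUBB3 were singled out after their values were seen.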

Additional observations from a re-analysis of the deposited data

How the results depend on the processing

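Of 670 values recomputed under alternatives, 649 were classed as unchanged, by a rule that differed between kinds of value. Fold changes of single genes had to keep their direction and side of the threshold, and shares only their direction. Counts of called genes had to stay within a set factor of the main count, so 6 isotypes called rather than 8 passed. Sums had to keep their ratio within the SD of the silenced samples. TUBA1A and TUBB2A lost their call in 5 of 14 alternatives each (log2 fold changes of 0.34, 0.38, 0.38, 0.43 and 0.43, and of 0.44, 0.48, 0.47, 0.53 and 0.53), and TUBA4A gained one at 0.64. With single samples left out, 6 to 9 isotypes were called (6 also without the filter), 7 to 10 folding genes, and 4159 to 4526 genes overall. The ratio of alpha sums then ran from 1.78 to 2.01. The change in share ran from -0.0464 to 0.0446 percentage points for TUBB2B, with -0.0138 without si-METTL16 replicate 1, and from -0.494 to 0.184 for TUBB3, with 0.0341, 0.0718 and 0.00939 also above 0, so neither direction is given. SCAPER ran from -0.21 to 0.0032. The titles do not say whether the replicate numbers pair the samples. Same-numbered deviations correlated at only 0.0253, 0.0371 and 0.0298 across genes, although each sample correlated best with its own number. These values do not settle the pairing. With the replicate block 5013 genes were called, 4731 of them among the 5418 called without it, and 8 isotypes. With 3 samples per group, TUBA4A and TUBB3 were not resolved at this depth and spread, and the cause of these changes was not tested.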
